A study of Rattus norvegicus with 12 samples.

Results

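The genes described here belong to the prostaglandin pathway, 7 that encode enzymes of synthesis (Pla2g4a, Ptgs1, Ptgs2, Ptgds, Ptgis, Ptges and Tbxas1) and 3 that encode receptors (Ptgfr, Ptger4 and Ptgir). They were chosen by gene symbol, with 1 probe set per gene, the one with the highest mean signal over all 12 arrays, and are 10 of 14217 named genes in the series. A probe set carried the name of 9 of the 10, Ptgir being the exception, and the 9 had 12 probe sets in all. Of these genes 8 passed the filter on low values and were tested, all 7 enzymes but only 1 receptor, Ptgfr, while Ptger4 was too dim to test. A comparison of synthesis steps with receptors therefore rests on a single receptor gene.

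Hearts of 1-day-old Wistar rats supplied the cells, ventricular cardiomyocytes in primary culture, which had been parted from fibroblasts by adhesion and kept for 24 h in OPTI-MEM. Cultures received ethanol vehicle, cortivazol (CVZ, a synthetic glucocorticoid), corticosterone (COR, the natural glucocorticoid of the rat) or aldosterone (ALD, a mineralocorticoid) for 3 h, in 2 experiments with 1 array per group in each (n = 2). In the second experiment the same 4 conditions were also run after 10 µM RU486 (mifepristone, an antagonist of the glucocorticoid receptor), as the groups RU, CVZ+RU, COR+RU and ALD+RU (n = 1 each). Ligand doses are not in the labels, so ligand and dose cannot be told apart. Whether the experiments were separate cell preparations is not stated either, and the p-values therefore reflect only how far these arrays scatter. Sex and pooling of animals are not stated.

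Prostaglandins are made on demand from arachidonic acid. Cytosolic phospholipase A2 (Pla2g4a) frees the fatty acid from membranes, the cyclooxygenases (the largely constitutive Ptgs1 and the inducible Ptgs2) turn it into the common precursor prostaglandin H, and terminal synthases make the active products, among them prostaglandin D (Ptgds), prostacyclin (Ptgis), prostaglandin E (Ptges) and thromboxane (Tbxas1). The products leave the cell and act on G protein-coupled receptors, such as Ptgfr for prostaglandin F, Ptger4 for prostaglandin E and Ptgir for prostacyclin. Glucocorticoids are best known for lowering Ptgs2 and phospholipase activity in inflammatory cells.

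Signals are MAS5 signals divided by the array's own median, so a signal of 1 is that of the median probe set, and signals of different genes cannot be set against each other. Differences are on the log2 scale after addition of a pseudocount of 0.0696, from limma with all groups and a block for experiment, and ± is the standard error. A gene was called where the p-value, adjusted by Benjamini-Hochberg over 18625 probe sets, was below 0.05. The steroid response was present in these arrays, since Fkbp5, a receptor co-chaperone, rose by log2 4.54 with CVZ, 3.87 with COR and 2.69 with ALD. Of the 6 check genes (Fkbp5, Klf15, Tsc22d3, Per1, Nr3c1 and Nr3c2) 4 were called higher and 1 lower with CVZ. With COR 4 were higher and with ALD 3. Of all probe sets 4.77% were called higher and 3.19% lower with CVZ, and 2.44% and 0.87% higher with COR and ALD. Cardiomyocyte markers (9 of 10 measured, all 9 above the filter) had summed signals of 1778 to 2323. The fibroblast markers summed to 369 to 452 in the first experiment and to 196 to 205 in the second without RU486, so fibroblast transcripts were present and differed between experiments. Macrophage markers summed to 12.8 to 21.9 over all arrays, of which Lyz2 alone gave 6.06 to 11.9, and Cd163 and Adgre1 were below the filter. Of 6 mast cell markers 1 passed the filter.

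CVZ raised 4 of the 8 tested genes and lowered 1. Ptgs2, Pla2g4a, Ptgds and Ptgis rose, Ptgfr fell, and Ptgs1, Ptges and Tbxas1 were not past the threshold. Of all probe sets tested 7.96% were called with CVZ, 4.77% higher and 3.19% lower (889 and 594 probe sets, but 785 and 801 when arrays were scaled by a trimmed mean). The median difference was 0.81 over the 7 enzymes and 0.72 over the 8 tested genes, against 0.01 over all probe sets. COR raised Ptgs2 and Pla2g4a and lowered Ptgfr, where 3.39% of all probe sets were called, 2.44% higher and 0.956% lower (454 and 178 probe sets, 431 and 275 with the trimmed mean), and the median over the enzymes was 0.55. With ALD no gene of the set was called (limma, 0 of 8, with Ptgds and Ptgfr at an unadjusted p of 0.026 and 0.001), where 0.950% of all probe sets were called (0.870% higher and 0.0805% lower, or 162 and 15 probe sets against 150 and 37 after quantile normalization), and the median over the enzymes was 0.36. These medians over the enzymes are the values of single uncalled genes, Tbxas1 with CVZ, Ptgis with COR and Ptgs2 with ALD. Over all probe sets the median was 0.007 with COR and 0.018 with ALD. The 3 comparisons share their vehicle arrays. Without the block for experiment 1 of the 5 CVZ calls was kept (Ptgs2) and 0 of the 3 COR calls. Set against each other, CVZ and COR differed for 2 of the 8 genes (0.966% of all probe sets), CVZ and ALD for 4, 3 higher and 1 lower (4.25% of all probe sets, 2.62% higher and 1.63% lower), and COR and ALD for 1 (0.295%).

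**Figure D1:**
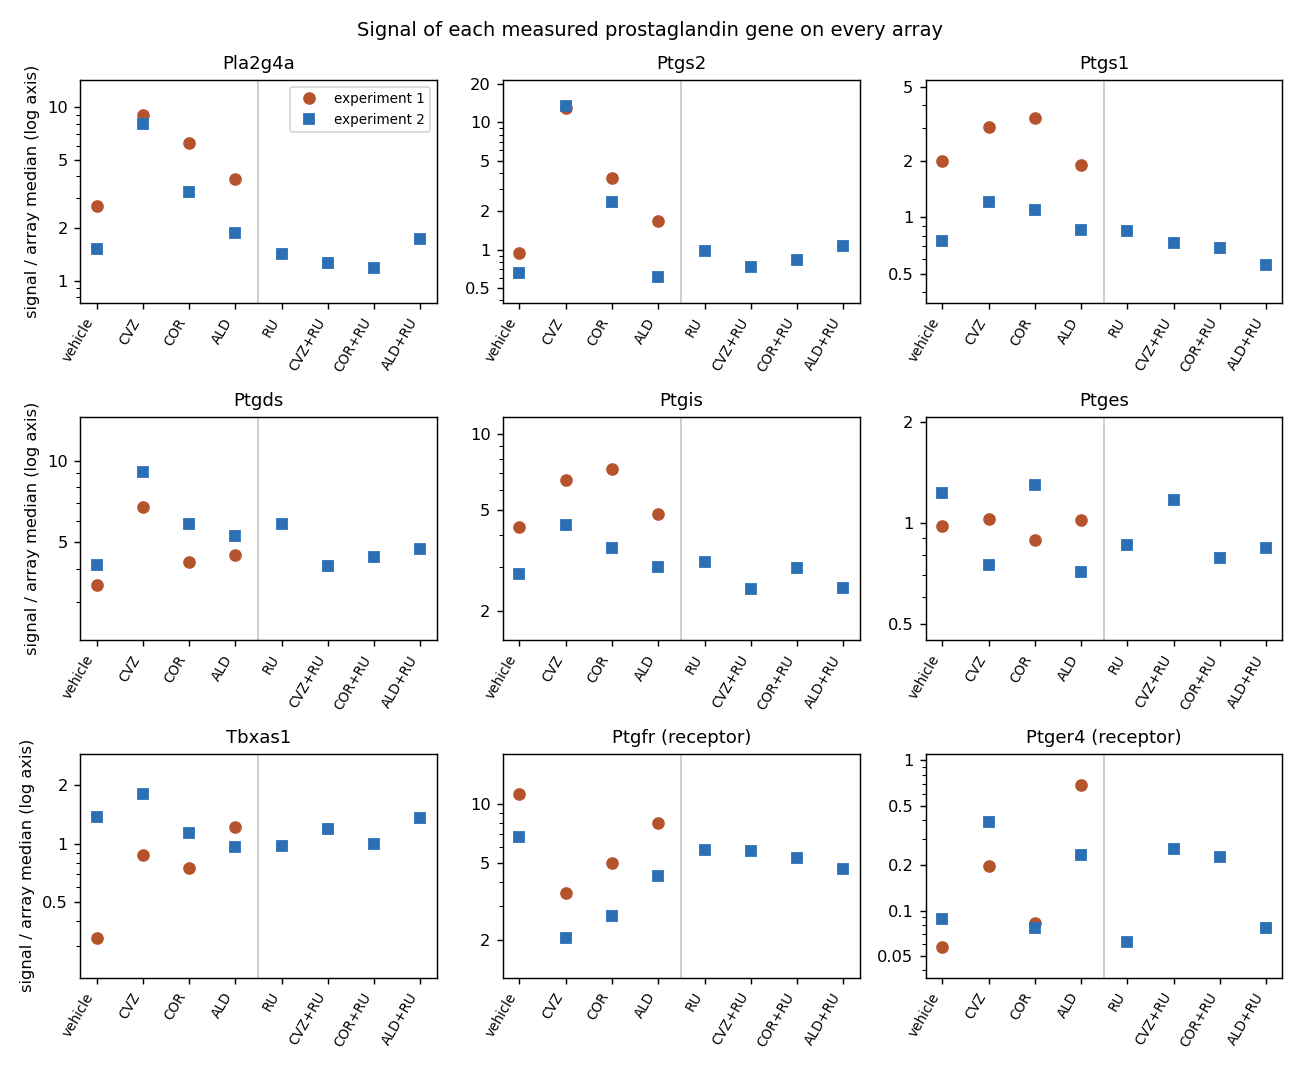
Signal of the 9 measured genes on each of the 12 arrays, as multiples of the array median on a log axis, with circles for the first and squares for the second experiment and a grey line before the RU486 groups. Ptgs2 reaches 13.0 and 13.5 with CVZ and lies between 0.730 and 1.07 on the RU486 arrays, and Ptgfr runs the other way.

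Ptgs2, the inducible cyclooxygenase, had the widest range, as a fold between its lowest and highest array, of the 9 genes. Its signal was 0.938 and 0.651 with vehicle in the first and second experiment, 13.0 and 13.5 with CVZ, 3.62 and 2.37 with COR, and 1.68 and 0.608 with ALD. Both CVZ arrays and both COR arrays lay above both vehicle arrays, whereas the ALD arrays lay on either side of them. The fitted rise was 15.6-fold with CVZ (log2 3.96 ± 0.29, adjusted p = 1.3e-07, n = 2) and 3.52-fold with COR (log2 1.81 ± 0.29, adjusted p = 0.0011). With ALD the difference was 0.36 (95% interval -0.26 to 0.97, adjusted p = 0.80), made up of 0.80 in the first experiment and -0.09 in the second, and -0.16 without the first ALD array. Ptgs2 was higher with CVZ than with COR by log2 2.15 ± 0.29 (adjusted p = 0.0028) and higher than with ALD by 3.61 ± 0.29 (adjusted p = 1.8e-06). COR exceeded ALD by 1.46 (adjusted p = 0.047), a call lost when either COR array, either vehicle array or the second ALD array was left out, with 0.95 without the last.

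Pla2g4a, the phospholipase that supplies arachidonic acid, also rose most with CVZ. Its signal was 2.70 and 1.52 with vehicle, 9.04 and 8.07 with CVZ, 6.21 and 3.26 with COR, and 3.86 and 1.88 with ALD. Within each experiment vehicle was lowest, ALD next, then COR, and CVZ highest. It rose 4.10-fold with CVZ (log2 2.04 ± 0.22, adjusted p = 8.3e-06) and 2.18-fold with COR (log2 1.12 ± 0.22, adjusted p = 0.0056), the latter call lost without the first COR or the second vehicle array (1.00 and 1.07). With ALD the difference was 0.40 (95% interval -0.06 to 0.86, adjusted p = 0.63). CVZ exceeded ALD by 1.63 ± 0.22 (adjusted p = 0.00021), and its excess over COR, 0.91, was not past the threshold (95% interval 0.45 to 1.37, adjusted p = 0.062).

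Pla2g4a and Ptgs2 are next to each other on rat chromosome 13. In the RefSeq annotation of GRCr8 no other protein-coding gene lies between them, and they stand on opposite strands. The 250 bases before the annotated start of these genes, and of Ptgfr, the gene that moved the other way, are shown. These 3 were called with both CVZ and COR, whereas Ptgds and Ptgis were called with CVZ and not with COR. RefSeq's table for GRCr8 held 9 of the 10 genes (not Ptgis). Capitals mark matches to any of 8 motifs searched on both strands: AGAACA (a half-site of the glucocorticoid receptor), the receptor's palindromic element with a free spacer, TTGCNNAA (C/EBP), TGACGTCA (the cAMP response element), CACGTG (E-box), TGANTCA (AP-1), the TATA box (TATAAA) and GGGCGG (GC box).
Ptgs2, chr13:64713813-64714062, plus strand: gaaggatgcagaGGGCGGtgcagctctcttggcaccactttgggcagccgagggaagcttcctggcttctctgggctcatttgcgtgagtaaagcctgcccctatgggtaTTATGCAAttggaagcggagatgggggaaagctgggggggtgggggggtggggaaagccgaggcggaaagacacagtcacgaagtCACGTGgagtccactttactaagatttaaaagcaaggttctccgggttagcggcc
Pla2g4a, chr13:64572353-64572602, minus strand: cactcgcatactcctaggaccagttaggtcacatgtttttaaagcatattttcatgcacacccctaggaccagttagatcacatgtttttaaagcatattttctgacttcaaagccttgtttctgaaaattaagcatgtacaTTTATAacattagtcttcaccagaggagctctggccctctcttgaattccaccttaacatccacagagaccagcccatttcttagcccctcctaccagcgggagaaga
Ptgfr, chr2:243425624-243425873, minus strand: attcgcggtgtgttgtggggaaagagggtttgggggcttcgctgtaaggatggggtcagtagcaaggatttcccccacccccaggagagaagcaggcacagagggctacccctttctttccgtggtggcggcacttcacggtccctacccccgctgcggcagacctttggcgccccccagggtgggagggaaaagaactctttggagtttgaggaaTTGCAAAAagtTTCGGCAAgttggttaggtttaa

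The Ptgs2 window held a GC box, a C/EBP match that ends 133 bases before the start, and an E-box. The Pla2g4a window held only a TATA box match on the opposite strand, and the Ptgfr window held a pair of C/EBP matches, on opposite strands, within its last 34 bases. No window of these 3 held either glucocorticoid receptor motif, and the half-site was found in Ptges and Tbxas1, neither of which was called. Of all 33469 windows of this length 17.5% held the half-site, 0.373% the palindrome, 9.22% the C/EBP letters, 5.59% the E-box, 12.9% the TATA box and 30.5% the GC box. The cAMP response element (1.59% of windows) and AP-1 (6.34%) were absent from all 3. These matches describe letters in a short window, and receptor binding was not measured.

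**Figure D2:**
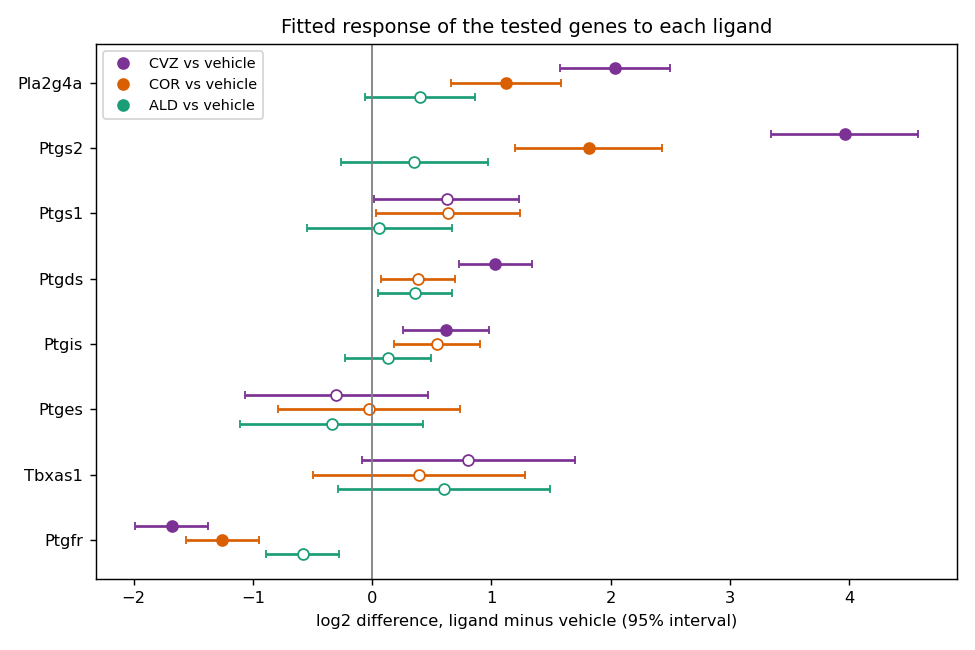
Fitted log2 difference from vehicle for the 8 tested genes under CVZ, COR and ALD, with 95% intervals, filled where called and open where not. For Ptgs2 the values are 3.96, 1.81 and 0.36, and for Ptgfr they are -1.68, -1.26 and -0.58.

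Among the terminal synthases Ptgds and Ptgis rose with CVZ. Ptgds had signals of 3.48 and 4.11 with vehicle, 6.74 and 9.07 with CVZ, 4.22 and 5.84 with COR, and 4.49 and 5.28 with ALD. Both CVZ arrays stood above the other 10 arrays, and all 6 arrays with a ligand and no RU486 stood above both vehicle arrays. The CVZ rise was 2.05-fold (log2 1.04 ± 0.15, adjusted p = 0.00016), while COR (0.39, adjusted p = 0.23) and ALD (0.36, adjusted p = 0.43) were not past the threshold. Ptgds was higher with CVZ than with ALD by 0.68 (adjusted p = 0.012) and than with COR by 0.65 (adjusted p = 0.047). Both calls depended on single arrays, the first being lost without either CVZ array or the second ALD array and the second without any 1 of the CVZ and COR arrays.

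Ptgis, prostacyclin synthase, had signals of 4.30 and 2.80 with vehicle, 6.57 and 4.37 with CVZ, 7.32 and 3.54 with COR, and 4.84 and 3.00 with ALD. Vehicle in the first experiment was close to CVZ in the second, so the groups overlapped, and within each experiment both glucocorticoid arrays lay above vehicle. The rise with CVZ was 1.53-fold (log2 0.62 ± 0.17, adjusted p = 0.034), with 0.60 and 0.63 in the first and second experiment. That call was lost when any vehicle or CVZ array was left out (0.52 to 0.71), with trimmed-mean scaling (0.56, adjusted p = 0.053), with no filter (adjusted p = 0.059) and without the mean-variance trend (adjusted p = 0.12). With COR the difference was 0.55 ± 0.17 (adjusted p = 0.12). Prostacyclin synthase is abundant in endothelium, and the 8 measured endothelial markers summed in the first and second experiment to 18.9 and 10.0 with vehicle, 31.2 and 22.5 with CVZ, 35.0 and 21.2 with COR, and 25.9 and 16.3 with ALD. Of the 6 tested only Kdr, a VEGF receptor, was called, with each ligand, and Vwf and Cldn5 were below the filter. Without Kdr the 7 others summed to 14.0 and 7.60 with vehicle, 18.7 and 9.99 with CVZ, 19.7 and 8.16 with COR, and 16.0 and 7.40 with ALD. The part of these markers in the Ptgis result was not tested.

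Ptgs1, Ptges and Tbxas1 gave no call with any ligand. Ptgs1, the constitutive cyclooxygenase, had signals of 2.00 and 0.744 with vehicle, 3.05 and 1.21 with CVZ, 3.42 and 1.09 with COR, and 1.91 and 0.852 with ALD. Its differences with CVZ (0.62, 95% interval 0.02 to 1.23, adjusted p = 0.26) and COR (0.64, 0.03 to 1.24, adjusted p = 0.35) were higher in both experiments, so a rise of about the size seen for Ptgis was not detectable at this precision. Ptges, the inducible prostaglandin E synthase, lay between 0.712 and 1.30 on all arrays and gave -0.30 with CVZ (95% interval -1.07 to 0.47). Tbxas1, thromboxane synthase, lay between 0.330 and 1.79. Its lowest value was that of the first vehicle array, which set its differences of 0.81 with CVZ, 0.39 with COR and 0.60 with ALD, and without that array the last pair became -0.32 and -0.12. The second probe sets of Ptges and Ptgs1 were below the filter.

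The receptor gene Ptgfr fell. Its signal was 11.3 and 6.80 with vehicle, 3.50 and 2.06 with CVZ, 4.97 and 2.65 with COR, and 7.98 and 4.25 with ALD. In each experiment the order was vehicle, ALD, COR, CVZ from high to low, the reverse of that of Pla2g4a. It was 3.21-fold lower with CVZ (log2 -1.68 ± 0.14, adjusted p = 8.5e-07) and 2.39-fold lower with COR (log2 -1.26 ± 0.14, adjusted p = 4.5e-05). With ALD it was lower in both experiments, by log2 -0.50 and -0.67, and not past the threshold (-0.58, 95% interval -0.89 to -0.28, adjusted p = 0.083). CVZ lay below ALD by -1.10 (adjusted p = 0.00021), while CVZ against COR (-0.43, adjusted p = 0.28) was not called. A second Ptgfr probe set, dimmer and also above the filter, had signals of 1.52 and 0.748 with vehicle and 0.664 and 0.214 with CVZ, lower in both experiments, and gave -1.32 ± 0.43 when all probe sets were fitted (adjusted p = 0.15). In that fit it gave -0.59 ± 0.43 with COR (adjusted p = 0.75) and -0.39 ± 0.43 with ALD (adjusted p = 0.91).

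Ptger4, a prostaglandin E receptor, was not tested. Its signals were 0.0573 and 0.0882 with vehicle, 0.199 and 0.388 with CVZ, 0.0824 and 0.0767 with COR, 0.689 and 0.234 with ALD, and 0.0621 to 0.256 with RU486. Several of these lie near the pseudocount, so no fold is given. Of the 9 prostanoid receptors listed for the pathway 2 passed the filter, Ptgfr and Ptger1, and Ptger1, another prostaglandin E receptor, was not called with any ligand.

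RU486 was added to ask which responses pass through the glucocorticoid receptor. Averaged over the 3 ligands, RU486 on top of the ligand lowered Ptgs2, Pla2g4a and Ptgds and raised Ptgfr, 4 of the 8 tested genes, where 4.87% of all probe sets were called, 2.99% lower and 1.88% higher (557 and 350 probe sets, 476 and 484 after quantile normalization). The values were -1.61 ± 0.23 for Ptgs2 (adjusted p = 0.00043), -1.37 ± 0.17 for Pla2g4a (adjusted p = 0.00013), -0.55 ± 0.12 for Ptgds (adjusted p = 0.0096) and 0.84 ± 0.11 for Ptgfr (adjusted p = 0.00031). Without the CVZ+RU array, over COR and ALD, they were -0.53 for Ptgs2, -0.28 for Ptgds and 0.51 for Ptgfr, none past the threshold, and Pla2g4a alone was called (-0.88). The Ptgds call was also lost without the second CVZ or COR array (-0.51 and -0.50). For CVZ by itself the same 4 genes were called, against 4.68% of all probe sets, 3.11% lower and 1.57% higher (579 and 292 probe sets, 521 and 424 after quantile normalization). Ptgs2 went from 13.5 to 0.730 in the second experiment (fitted -3.76 ± 0.37, adjusted p = 1.2e-05, n = 1 with RU486), Pla2g4a from 8.07 to 1.26 (-2.33 ± 0.27, adjusted p = 6.3e-05), Ptgds from 9.07 to 4.10 (-1.09 ± 0.19, adjusted p = 0.0019) and Ptgfr from 2.06 to 5.73 (1.48 ± 0.18, adjusted p = 0.00011).

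**Figure D3:**
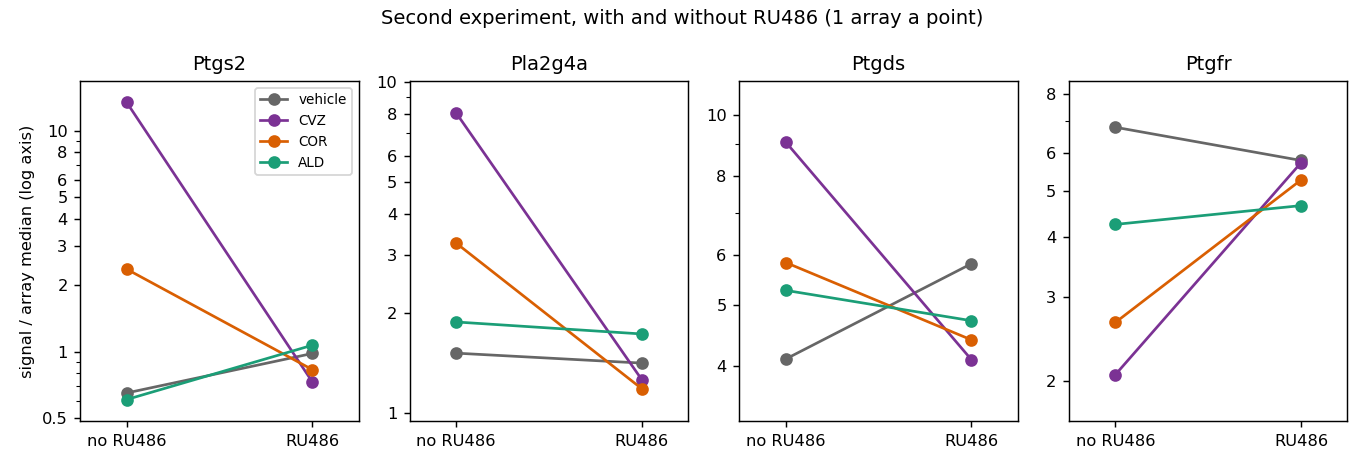
Signals of Ptgs2, Pla2g4a, Ptgds and Ptgfr in the second experiment without and with RU486, each point 1 array, as multiples of the array median on log axes that differ between panels. The CVZ line of Ptgs2 drops from 13.5 to 0.730 and that of Ptgfr climbs from 2.06 to 5.73, beside 0.983 and 5.79 with RU486 alone.

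For COR, RU486 changed Pla2g4a and Ptgfr, where 0.854% of all probe sets were called, 0.558% lower and 0.295% higher. Pla2g4a went from 3.26 to 1.18 (fitted -1.51 ± 0.27, adjusted p = 0.013) and Ptgfr from 2.65 to 5.27 (0.94 ± 0.18, adjusted p = 0.021), and both calls were lost without either COR array. Ptgs2 went from 2.37 to 0.830, which was not past the threshold (-1.44 ± 0.37, adjusted p = 0.097). For ALD no gene of the set was called (limma, 0 of 8, none with an unadjusted p below 0.05), where 0.0215% of all probe sets were, 0.0161% lower and 0.00537% higher. With RU486 present the ligands no longer differed detectably from RU486 alone (0 of 8 genes called, against 0 of 18625 probe sets, of which 462 had an unadjusted p below 0.05, and among the 8 only Ptgds had one, 0.032). For Ptgs2 the difference was -0.17 ± 0.33 and for Pla2g4a -0.04 ± 0.25, with 95% intervals of -0.88 to 0.54 and -0.57 to 0.49. Each RU486 group had 1 array, so a remaining response could be missed. The check gene Fkbp5 had a signal of 2.40 with RU486 alone and 4.25, 4.85 and 5.33 with CVZ, COR and ALD beside RU486.

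RU486 alone called no gene of the set (0 of 8, against 0.129% of all probe sets). Ptgds had the lowest unadjusted p, 0.030, with a signal of 5.82 against 4.11 in the second vehicle array (fitted 0.44 ± 0.19, adjusted p = 0.67). Whether ligands acted differently when RU486 was present was tested as an interaction, averaged over the 3. It was called for Ptgs2 (-2.21 ± 0.41, adjusted p = 0.011), Ptgds (-0.99 ± 0.21, adjusted p = 0.025) and Ptgfr (1.02 ± 0.20, adjusted p = 0.019), where 1.09% of all probe sets were called, 0.966% lower and 0.123% higher, and not for Pla2g4a (-1.23 ± 0.30, adjusted p = 0.078). All 3 calls were lost without the CVZ+RU array (-1.14, -0.72 and 0.70), those of Ptgds and Ptgfr also without the second vehicle array (-0.92 and 0.96), that of Ptgds without the second COR array (-0.96) and that of Ptgs2 without the first vehicle array (-2.13).

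Other values moved with RU486. Of 9 cardiomyocyte markers 5 were lower with RU486 on top of the ligands (median -0.20, but 0 of 9 after quantile normalization). Of all probe sets 2.99% were called lower in that comparison. The summed signal of the cardiomyocyte markers was 1778 to 1983 on the 4 RU486 arrays, below the 1986 to 2256 of the other arrays of the second experiment. None of 10 fibroblast markers was called (median -0.06), and their sum was 178 to 193 on the RU486 arrays against 196 to 205 on the others. Of 7 smooth muscle markers 1 was lower (median -0.38), with sums of 21.8 to 25.4 against 27.6 to 32.7, and of 6 endothelial markers 1 was lower (median -0.23). Kdr, called with each ligand, went from 12.5 to 4.10 for CVZ, 13.0 to 5.77 for COR and 8.86 to 5.00 for ALD. Without Kdr the endothelial sum was 7.33 to 8.82 on the RU486 arrays against 7.40 to 9.99 on the others. The array medians before division were 35.4 to 37.7 with RU486 and 22.4 to 33.7 without it in the same experiment. Their part in the RU486 results was not tested.

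The 2 experiments differed in the level of most of these genes. Of the 8 tested genes 5 were lower in the second experiment and 1 was higher, where 38.9% of all probe sets were called, 28.2% lower and 10.7% higher, and the median of all probe sets was -0.10. Scaling by a trimmed mean moved that median to 0.10 and the split from 5250 lower and 1995 higher to 3016 and 4424, and 4 of the 8 genes were then lower and 2 higher. Ptgs1 differed by -1.33 ± 0.20 (adjusted p = 9.2e-05, lower in 4 of 4 groups, but -0.83 and not called when the dim second probe set was averaged in), Ptgfr by -0.82 ± 0.10 (adjusted p = 1.5e-05, 4 of 4), Ptgis by -0.73 ± 0.12 (adjusted p = 0.00020, 4 of 4) and Pla2g4a by -0.72 ± 0.15 (adjusted p = 0.0014, 4 of 4). Ptgs2 differed by -0.60 ± 0.20 (adjusted p = 0.029, 3 of 4 groups, CVZ being 0.05 higher), a call lost without either vehicle, COR or ALD array, with -0.35 without either ALD array, and also with quantile normalization (-0.52, adjusted p = 0.079), trimmed-mean scaling (-0.41, adjusted p = 0.14), no filter (adjusted p = 0.072) or no trend (adjusted p = 0.10). Ptgds was higher by 0.34 ± 0.10 (adjusted p = 0.016, 4 of 4), a call lost without either CVZ or COR array (0.30 to 0.31), and was 0.54 with trimmed-mean scaling. All 10 fibroblast markers were also lower in the second experiment under each of the 3 scalings, with a median of -1.33 (-1.13 with the trimmed mean). With division by the array median, 3 of 6 tested endothelial, 3 of 7 smooth muscle (1 higher), 2 of 5 epicardial, 2 of 7 macrophage and 4 of 9 cardiomyocyte markers (1 higher) were lower too. With the trimmed mean 1 cardiomyocyte marker was lower and 4 were higher, and 1 macrophage marker was lower and 1 higher. In bulk samples fewer cells of a type and less RNA per cell cannot be told apart, and the part of other cell types in these differences was not tested. With CVZ 1 of the 10 fibroblast markers was called (Tcf21, 0.95) and their median was 0.01 (-0.08 after quantile normalization).

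**Figure D4:**
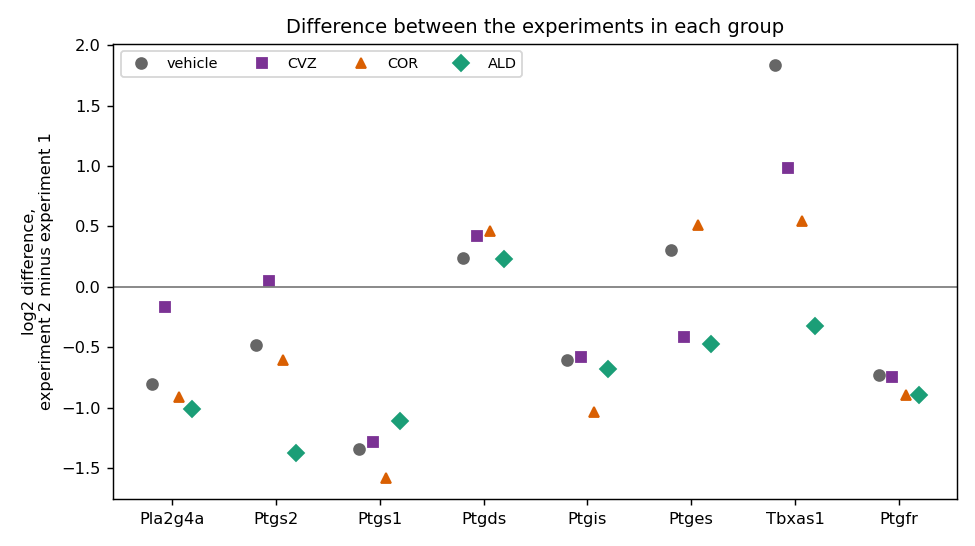
Log2 difference of the second from the first experiment for the 8 tested genes in each group run in both, with 1 point per group. Ptgs1, Ptgis, Ptgfr and Pla2g4a lie below 0 in all 4 groups, and Ptgds lies above 0 in all 4.

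The wider pathway was covered by 52 other genes, of which 37 were tested. Their lists follow its steps and related branches, and 1 list holds 9 regulators of Ptgs2. With CVZ 9 of the 37 rose and 0 fell, where 4.77% of all probe sets were called higher and 3.19% lower. Under both other scalings 7 rose and 1 fell, the secreted phospholipase Pla2g5, named after its values were seen. With COR 3 rose (2.44% of all probe sets), with ALD 2 rose (0.87%), and with RU486 on top of the ligands 4 were lower (2.99%). Regulators of Ptgs2 made up 4 of the 9 CVZ rises, all 3 COR rises, the 2 ALD rises and 3 of the 4 falls with RU486. The median over the 37 with CVZ was -0.001, beside 0.007 over all probe sets, so the rises stood in single genes. Of 8 tested phospholipases 3 rose with CVZ, where 4.77% of all probe sets did. They were Pla2g4a, already counted among the 10, Pla2g4b (1.05, adjusted p = 0.0029 by limma) and the secreted Pla2g12a (0.53, adjusted p = 0.045, but 0.066 with trimmed-mean scaling). No gene was called among the 4 regulators of phospholipase action with a ligand. Anxa1, the annexin long described as steroid-induced, gave -0.07 with CVZ (95% interval -0.31 to 0.16). It was lower with RU486 on top of the ligands (-0.50, adjusted p = 0.0025 by limma). Its signal in the second experiment was also lower with RU486 alone, 9.51 against 15.1 with vehicle, 1 array each.

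Of 8 tested terminal synthases 3 rose with CVZ, Ptgds and Ptgis with the membrane-bound prostaglandin E synthase Ptges2 (0.59, adjusted p = 0.0015). Of all probe sets 4.77% were called higher with CVZ. In the leukotriene branch 2 of 4 tested genes rose, Ltc4s (1.37, adjusted p = 0.029) and Mgst2 (0.53, adjusted p = 0.033, but 0.050 with quantile normalization and 0.062 with trimmed-mean scaling, neither past the threshold), both of which can make leukotriene C. None of 5 tested genes of prostaglandin transport and breakdown and none of 3 of arachidonate re-esterification was called with any ligand. Of all probe sets 7.96% were called with CVZ, 3.39% with COR and 0.95% with ALD, so an absence in lists this short says little.

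Among 9 regulators of Ptgs2 4 rose with CVZ, where 4.77% of all probe sets were called higher. Cebpb and Cebpd, transcription factors of the C/EBP family, rose by log2 2.24 ± 0.16 (adjusted p = 1.5e-07) and 1.53 ± 0.24 (adjusted p = 0.00041). Zfp36 and Zfp36l1, which destabilise mRNAs with AU-rich elements, rose by 2.13 ± 0.14 (adjusted p = 3e-08) and 0.38 ± 0.10 (adjusted p = 0.019), the latter not called after quantile normalization (0.28, adjusted p = 0.053). With COR Cebpb (1.74), Cebpd (1.32) and Zfp36 (1.34) were called, and with ALD Cebpb (1.15, adjusted p = 0.0012) and Zfp36 (0.67, adjusted p = 0.023). Of all probe sets 2.44% were called higher with COR and 0.87% with ALD. With RU486 on top of the ligands Cebpb (-0.79), Cebpd (-1.32) and Zfp36 (-0.87) were lower, where 2.99% of all probe sets were. For Cebpd the differences in the second experiment were -3.91 for CVZ, -0.75 for COR and 0.46 for ALD. Its signal was 0.159 on the CVZ+RU array, beside 1.40 with RU486 alone, so the mean over the ligands leans on that array.

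Across the 12 arrays the log2 signals of Ptgs2 and Pla2g4a correlated at r = 0.93, those of Ptgs1 and Ptgis at 0.97, and those of Ptgds and Ptgfr at -0.86. These describe 12 arrays that share treatments and experiments. Outside the lists, the genes whose profile was nearest to that of Ptgs2 were Tcap (0.98), Rnf144b (0.98), Odc1 (0.97), Aff1 (0.97) and Qsox1 (0.96). For Pla2g4a they were Lmod2 (0.99), Ptpn11 (0.98), Cdc42ep4 (0.98), Sgk1 (0.98) and Baiap2 (0.98), and for Ptgfr they were Usp3 (0.96), Ier3 (0.95), Sema6d (0.95), Nfat5 (0.95) and Zcchc24 (0.94).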

How the data were processed

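Expression was measured on 12 one-colour Affymetrix rat arrays of 31099 probe sets. The deposited intensity values, linear MAS5 signals per the submitters' processing notes, have a median of 1 on every array, so the values show a division of each array by its median (21.1 to 37.7, the factor that turned the first 4000 probe sets of an array into multiples of 0.1, within 0.02 of a step). The arrays hold no depth, and their number limits the precision. Detection calls were not used here.

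GEO's platform annotation with current RefSeq symbols named the probe sets: 20826 had 1 symbol, 436 several and 9780 none. After 57 control probe sets were set aside, log2(signal + 0.0696) was taken (the pseudocount is the 10th percentile of all values), and probe sets with a mean above the 40th percentile were tested. The model was fitted with limma 3.58.1 in R 4.3.3, with the 8 groups, the experiment as a block and a mean-variance trend (3 residual degrees of freedom, 15.2 in all with the prior), so most of the degrees of freedom come from other probe sets, and an RU486 array without a partner is assumed to scatter as the paired arrays do. The labels' experiment number pairs the arrays: deviations from group means correlated between groups at 0.51 to 0.57. The procedure was tested on simulated data. Python 3.11.15 was used otherwise.

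The genes and lists were chosen with earlier results of these data known. Named were the 10 genes, up to 4 called genes per pathway list, steroid check genes, and the 5 genes most like Ptgs2, Pla2g4a and Ptgfr; markers and Ptger1 were named after their values were seen. Alternatives covered scaling, pseudocount, filter, block, trend, probe set and leaving out each array. Other marker lists gave no call with CVZ by limma in smooth muscle (0 of 7), macrophage (0 of 7), mast (0 of 1), epicardial (0 of 5) and platelet genes (0 of 2), and 1 of 9 in cardiomyocytes (Myh7, 0.35).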

Additional observations from a re-analysis of the deposited data

Results flagged for a closer look

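The ligand response differed between cultures with and without RU486, by the interaction test averaged over the ligands, for Ptgs2 (log2 -2.21, adjusted p = 0.011 from limma), Ptgds (-0.99, adjusted p = 0.025) and Ptgfr (1.02, adjusted p = 0.019). The Ptgds signal was 5.82 with RU486 alone and 4.10 to 4.73 on the 3 arrays with a ligand and RU486.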

How the results depend on the processing

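Of 48 results for single genes tried under the alternatives, 34 were called, and 6 of these kept the call in every alternative run: Ptgs2 with CVZ against vehicle, against ALD and against CVZ+RU, and the experiment differences of Pla2g4a, Ptgis and Ptgfr. Without the replicate block for the experiment 25 calls were lost. The number of genes called then fell to 1 for CVZ against vehicle, against ALD and against CVZ+RU, and to 0 for COR against vehicle, CVZ against COR, COR against ALD, RU486 on top of the 3 ligands, the interaction, and COR+RU against COR. Without the mean-variance trend the counts were 1 for COR against vehicle, 2 for CVZ against ALD and for CVZ+RU against CVZ, and 0 for CVZ against COR, COR against ALD, RU486 on top of the ligands, the interaction, and COR+RU against COR. Ptgds (CVZ against COR) was lost, leaving 1 gene, under quantile normalization, with no filter and with the median over probe sets. COR against ALD (Ptgs2) fell to 0 under quantile normalization, trimmed-mean scaling, the 5th percentile pseudocount, no filter and the median over probe sets, and COR+RU against COR fell to 1 with the median over probe sets. When 1 array was left out the counts ran from 2 to 3 for COR against vehicle, 4 to 5 for CVZ against vehicle, 1 to 3 for CVZ against COR, 3 to 4 for CVZ against ALD, 0 to 1 for COR against ALD, 1 to 5 for RU486 on top of the ligands, 0 to 4 for the interaction, 0 to 3 for COR+RU against COR, and 4 to 6 between experiments. Signs turned for 3 uncalled results as single arrays were left out. Ptgs2 with ALD ran from -0.16 (without the first ALD array) to 0.87, Tbxas1 with COR from -0.32 (without the first vehicle array) to 1.11, and Tbxas1 with ALD from -0.12 (without the first vehicle or the first ALD array) to 1.32. With the median over probe sets Ptgfr lost its calls for COR+RU against COR and for the interaction. Trimmed-mean scaling moved the median of all probe sets between experiments from -0.10 to 0.10. Leaving out an array left fewer samples; otherwise the cause was not tested. The lone RU array could not be left out, and the experiment difference has no value without the block.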

Other observations

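Hpgd encodes the dehydrogenase that begins the breakdown of prostaglandins, and its probe set was below the filter, so it was singled out after its values were seen. Its signal was 0.502 and 0.0756 with vehicle, 2.60 and 1.06 with CVZ, 1.95 and 0.791 with COR, 0.647 and 0.404 with ALD, and 0.0565 to 0.287 with RU486. Among the arrays without RU486 CVZ was highest in each experiment, COR next, then ALD, and vehicle lowest. With no filter it gave log2 2.59 ± 0.57 with CVZ (adjusted p = 0.020 by limma) and 2.19 ± 0.57 with COR (adjusted p = 0.10), with signals near the pseudocount in the second vehicle array and in those of RU and CVZ+RU.

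Between the experiments 38.9% of all probe sets were called, 28.2% lower and 10.7% higher in the second. Of the 37 tested genes of the pathway and regulator lists outside the 10, 17 were lower and 6 higher (15 and 9 with trimmed-mean scaling). Among the lower were the secreted phospholipase Pla2g2a (log2 -3.32), the annexins Anxa1 (-1.79) and Anxa2 (-1.34), S100a10, a partner of Anxa2 (-1.98), and the prostaglandin transporter Slco2a1 (-1.24), chosen here after their values were seen.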
